A study of Mus musculus with 14 samples.

Results

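The 34 genes described here encode the contractile filaments, the calcium machinery and the energy enzymes of skeletal muscle, 11 of them in forms typical of fast fibres and 5 in forms typical of slow fibres. They were chosen by name, and each was read at the probe set with its highest mean level among those annotated with that symbol alone. All 34 had such a probe set, out of 18193 genes named on the arrays. They had 61 probe sets in all, 1 for each of 21 genes and several for each of the other 13. A total of 30 genes had a mean level above 6.65 on the log2 scale, the 40th percentile of all probe sets, and 4 (Tnnt1, Myl2, Myot and Trdn) lay at or below it and are called dim.

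Mammary glands were taken from female C57BL/6 mice obtained at 11 to 12 weeks of age, 3 h after treatment and 7 days after removal of the ovaries, which all groups shared. The groups were E2+acolbifene (2 arrays), E2+fulvestrant, E2+raloxifene and E2+tamoxifen (1 array each), E2 alone, which is 17-beta-estradiol (2 arrays), acolbifene alone (2 arrays), fulvestrant, raloxifene and tamoxifen alone (1 array each), and vehicle (2 arrays). The 4 drugs are blockers of estrogen receptors. The glands of a group, 8 mice by the labels, were pooled, and separate pools for the 2 arrays of a group are not stated in the labels. The p-values therefore reflect the variation from array to array alone, and it may be technical.

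In striated muscle, myosin of the thick filament pulls on actin of the thin filament when calcium released from the sarcoplasmic reticulum binds troponin. Fast and slow fibres use different genes for troponins, myosin light chains and related proteins, and slow fibres hold more myoglobin. Glandular epithelium and fat of the mammary gland are not known to make sarcomeres, whereas the mouse gland lies against the thin muscle of the skin and the muscle of the body wall. In RNA from whole glands, a different number of muscle fibres and a different amount of RNA per fibre cannot be told apart.

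The arrays were alike in overall level, with medians of 7.16 to 7.23 log2, and the median of all probe sets relative to vehicle stayed between -0.03 and 0.02 log2 on every array. The 2 E2 arrays differed from each other in the muscle genes, as described further on, so the counts of called genes that involve E2 are given with both arrays and with each alone. Raw-file names carried one of 2 codes whose meaning the labels do not give. One code was carried by the first E2 array together with the 6 unreplicated arrays, and the other by the remaining 7 arrays. A second part of these names was the same for the 2 arrays of each replicated group, the E2 pair included. In the vehicle, acolbifene and E2+acolbifene pairs the names also carried a suffix, R1 or R2. The labels do not give the meaning of these parts. The raloxifene array had the same second part as both E2+acolbifene arrays, and their muscle gene levels differed. Hybridization spikes averaged 9.86 to 10.04 log2 on the E2 and unreplicated arrays, against 10.23 to 10.41 on the others.

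Most of the muscle genes rose and fell together over the 14 arrays, though not in one strict order. Relative to the mean of the vehicle arrays, the median of the 30 genes above the dim level was 0.68 and 0.65 log2 with E2+acolbifene and 0.71 with fulvestrant. It was -0.84 with E2+raloxifene, -0.15 with E2+tamoxifen and -0.02 with E2+fulvestrant. The E2 arrays had -0.40 and 0.49, the acolbifene arrays -0.04 and -0.06, the raloxifene array -0.18 and the tamoxifen array -0.09, against 0.01 and -0.01 in vehicle. The lowest array of 22 of the 34 genes was E2+raloxifene. The highest array was one of the E2+acolbifene arrays for 12 and 6 genes, fulvestrant for 11, E2 array 2 for 4 and vehicle array 2 for 1.

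**Figure D1:**
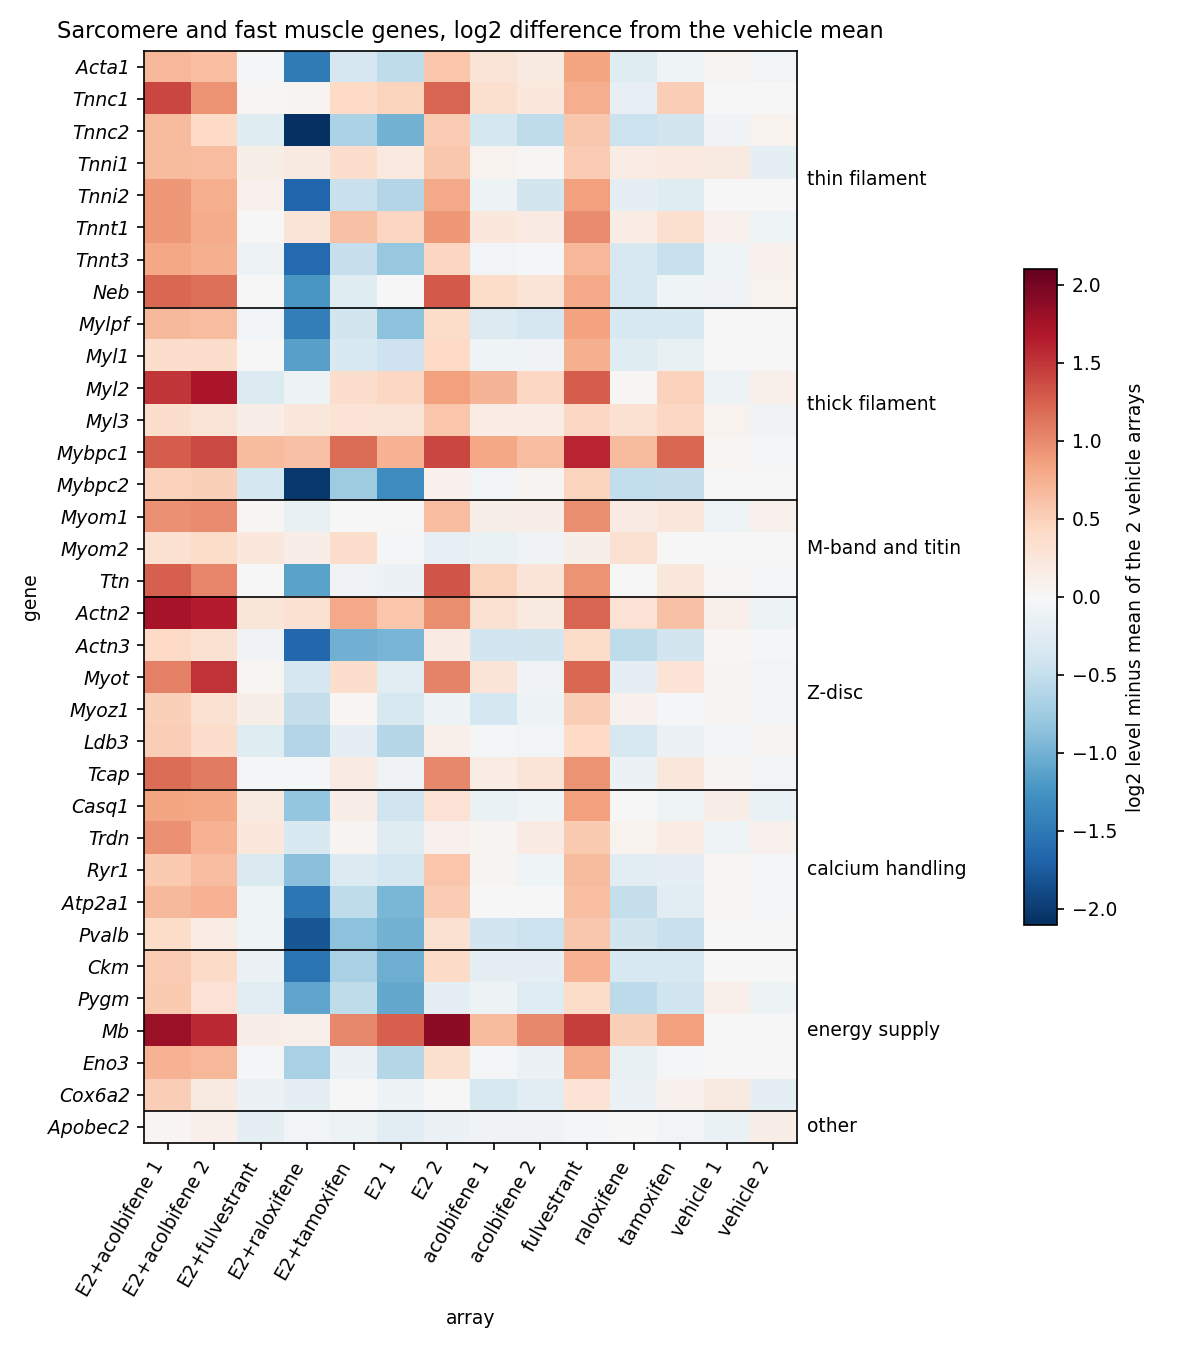
Log2 level of each of the 34 muscle genes (rows, grouped by role) on each of the 14 arrays (columns), minus the mean of the 2 vehicle arrays, with red above and blue below vehicle. The E2+acolbifene and fulvestrant columns are red for most genes and the E2+raloxifene column is blue for most, down to -2.09 for Tnnc2, while Mb and Mybpc1 are red on each array other than vehicle.

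Thin filaments carry actin, the troponins that sense calcium, and nebulin, which runs along the filament. Tnnc2, the troponin C of fast fibres that binds calcium, had the widest range of all 34 genes, 2.76 log2 or 6.75-fold. Its log2 level was 11.58 and 11.34 with E2+acolbifene, 10.66 with E2+fulvestrant, 8.83 with E2+raloxifene, 10.24 with E2+tamoxifen, 9.92 and 11.44 with E2, 10.55 and 10.38 with acolbifene, 11.49 with fulvestrant, 10.45 with raloxifene, 10.53 with tamoxifen and 10.84 and 10.98 with vehicle. The E2+raloxifene array was the lowest, the first E2 array came next, and the second E2 array was among the high ones. Acta1, the actin of adult skeletal muscle, stood at 12.15 and 12.09 with E2+acolbifene, 11.43 with E2+fulvestrant, 9.96 with E2+raloxifene, 11.09 with E2+tamoxifen, 10.91 and 12.03 with E2, 11.71 and 11.64 with acolbifene, 12.27 with fulvestrant, 11.19 with raloxifene, 11.36 with tamoxifen and 11.50 and 11.39 with vehicle. Its level was likewise lowest with E2+raloxifene and highest with fulvestrant, 4.96-fold apart. Tnni2, the inhibitory troponin of fast fibres, ranged over 2.58 log2, Tnnt3, the fast troponin T, over 2.45 and Neb, nebulin, over 2.50. The slow counterparts had narrower ranges, 1.59 for Tnnc1, 1.08 for Tnnt1 and 0.86 for Tnni1.

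Thick filaments carry myosin with its light chains and myosin-binding protein C. Mylpf, the regulatory light chain of fast fibres, was at 9.95 and 9.92 with E2+acolbifene, 9.22 with E2+fulvestrant, 7.83 with E2+raloxifene, 8.89 with E2+tamoxifen, 8.42 and 9.66 with E2, 8.98 and 8.93 with acolbifene, 10.11 with fulvestrant, 8.95 with raloxifene, 8.95 with tamoxifen and 9.26 and 9.29 with vehicle. The E2+acolbifene, fulvestrant and second E2 arrays lay above both vehicle arrays, and the other 8 lay below. Myl1, the fast essential light chain, ranged over 1.88 log2 and Mybpc2, the fast form of myosin-binding protein C, over 2.53, from 6.74 with E2+raloxifene to 9.28 with E2+acolbifene. At the M-band and along the whole half-sarcomere, Ttn, the giant spring protein titin, ranged over 2.44 and Myom1, which cross-links thick filaments, over 1.14.

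At the Z-disc, where actin filaments are anchored, Actn3, the alpha-actinin of fast fibres, ranged over 2.06 log2. Myot (myotilin) ranged over 1.86 around a dim mean of 5.94, and Tcap, the titin cap, over 1.30. Ldb3, which binds alpha-actinin, ranged over 1.14 and Myoz1, which links alpha-actinin to calcineurin, over 1.01. Among the genes that move calcium, Atp2a1, the pump that returns calcium to the reticulum in fast fibres, was at 11.24 and 11.29 with E2+acolbifene, 10.47 with E2+fulvestrant, 9.04 with E2+raloxifene, 10.02 with E2+tamoxifen, 9.60 and 11.09 with E2, 10.54 and 10.54 with acolbifene, 11.19 with fulvestrant, 10.06 with raloxifene, 10.32 with tamoxifen and 10.60 and 10.51 with vehicle. E2+raloxifene was again the lowest array and the first E2 array the next, and E2+acolbifene gave the highest levels. Pvalb, the calcium buffer parvalbumin, ranged over 2.36, Casq1, which stores calcium in the reticulum, over 1.67, Ryr1, the release channel, over 1.53, and Trdn, which ties Casq1 to that channel, over 1.28.

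Of the genes of energy supply, Ckm, the creatine kinase that regenerates ATP, was at 11.32 and 11.18 with E2+acolbifene, 10.65 with E2+fulvestrant, 9.24 with E2+raloxifene, 10.09 with E2+tamoxifen, 9.75 and 11.18 with E2, 10.57 and 10.58 with acolbifene, 11.50 with fulvestrant, 10.44 with raloxifene, 10.45 with tamoxifen and 10.78 and 10.78 with vehicle. The second E2 array equalled E2+acolbifene array 2 to the second decimal, and the first E2 array was lower than all arrays but E2+raloxifene. Pygm, which releases glucose from glycogen, ranged over 1.64 and Eno3, the enolase of muscle, over 1.46. Mb, the oxygen store myoglobin, ranged over 1.90 in another order of the arrays, and Cox6a2, the muscle form of a cytochrome oxidase subunit, over 0.86.

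Fast and slow forms did not keep the same distance from vehicle. The median of the 11 fast fibre genes was 0.67 and 0.50 log2 with E2+acolbifene, -0.08 with E2+fulvestrant, -1.63 with E2+raloxifene, -0.48 with E2+tamoxifen, -0.85 and 0.39 with E2, -0.14 and -0.11 with acolbifene, 0.63 with fulvestrant, -0.33 with raloxifene and -0.32 with tamoxifen, relative to vehicle. The median of the 5 slow fibre genes (Tnnc1, Tnni1, Tnnt1, Myl2 and Myl3) was 0.91 and 0.79 with E2+acolbifene, 0.02 with E2+fulvestrant, 0.19 with E2+raloxifene, 0.37 with E2+tamoxifen, 0.43 and 0.86 with E2, 0.22 and 0.16 with acolbifene, 0.76 with fulvestrant, 0.16 with raloxifene and 0.43 with tamoxifen. On all 12 arrays other than vehicle the slow median was the higher one. The gap was widest with E2+raloxifene, 1.83 log2, and was 0.06 and -0.06 on the vehicle arrays. Both measures are read against vehicle, so a level particular to the 2 vehicle arrays enters the gap on every other array. The slow genes had a median level of 7.21 log2, with 2 of the 5 dim, and the fast genes one of 9.29, and the part of signal level in the gap was not tested.

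**Figure D2:**
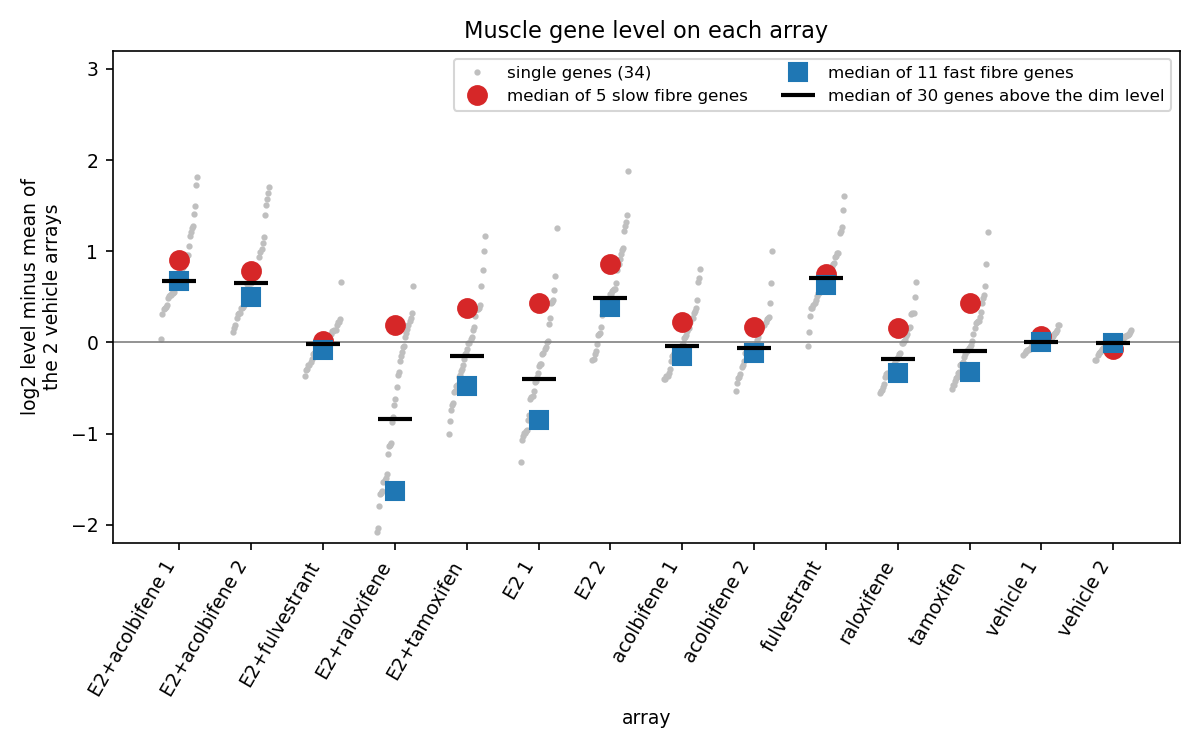
Log2 level minus the mean of the 2 vehicle arrays (vertical axis) on each of the 14 arrays (horizontal axis), with grey points for the 34 genes, black bars for the median of the 30 above the dim level, red circles for the 5 slow and blue squares for the 11 fast fibre genes. The red circle lies above the blue square on each array other than vehicle, by 1.83 with E2+raloxifene and by 0.12 with fulvestrant.

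The E2 pair differed more than the other pairs. Array 1 minus array 2 had a median of -0.90 log2 over the 30 genes, and 24 of the 34 genes were over 1.5-fold apart, against 0.688% of all probe sets. A total of 33 genes were higher on array 2, and the differences ran from -1.53 for Tnnc2 to 0.13 for Myom2. No muscle gene was over 1.5-fold apart in the E2+acolbifene pair (0.167% of all probe sets), in the acolbifene pair (0.34%) or in the vehicle pair (0.246%). In the E2 pair the fast genes had a median difference of -1.24 and the slow genes one of -0.43. The raw-file code differed between the 2 E2 arrays and was shared within each other pair, so its part cannot be told apart from any other difference between these 2 arrays.

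How alike each gene was to the rest was measured as Pearson's r over the 14 arrays with the median of the other genes above the dim level. The points include 4 pairs of arrays from one group each, and the value is a description. It was at least 0.8 for 23 genes, highest for Mylpf (0.98), Ryr1, Tnni2 and Eno3 (0.97 each). Of 13283 other genes above the dim level, 13 reached 0.8, or 0.0979%. The 10 most alike of them were Eef1a2 (0.96), Pgam2 (0.96), Pfkm (0.94), Myh4 (0.93), Tpm1 (0.91), Hspb6 (0.91), Srl (0.90), Rtn2 (0.88), Cmya5 (0.88) and Tmem38a (0.86). Eef1a2 encodes a translation elongation factor of muscle and nerve, Pgam2 and Pfkm glycolytic enzymes of muscle, Myh4 a fast myosin heavy chain and Tpm1 a tropomyosin. Of 30 other muscle genes above the dim level that were listed for comparison, 7 reached 0.8.

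A group of 11 genes departed from the common pattern, with r under 0.8: Myl2 (0.799, just under), Tnnc1 (0.74), Actn2 (0.72), Cox6a2 (0.71), Tnni1 (0.68), Tnnt1 (0.67), Mb (0.67), Mybpc1 (0.56), Myl3 (0.38), Apobec2 (0.36) and Myom2 (0.13). Myoz1 lay just above the limit at 0.81. Of these 11, Mybpc1, the slow form of myosin-binding protein C, and Myom2, of fast fibres and heart, are in neither the fast nor the slow list. All 5 listed slow fibre genes were among the 11, and none of the 11 listed fast fibre genes was. That split depended on the setting: the slow gene Myl2 had an r of 0.82 without the E2 arrays, 0.84 without the vehicle arrays and 0.83 when every gene was averaged over its probe sets, and the fast gene Myoz1 had 0.67 with rank correlation and 0.75 with that averaging. The number under 0.8 was 10 without the E2 arrays and 17 with rank correlation. In a check added after the data had been seen, it was 10 without the vehicle arrays.

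**Figure D3:**
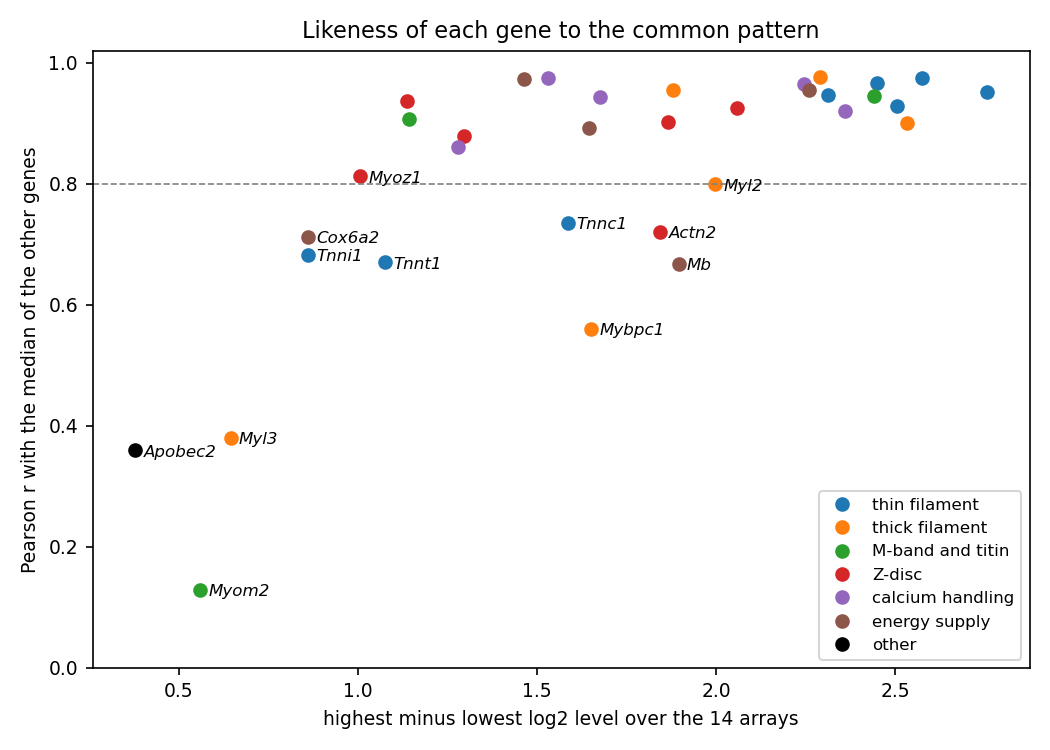
Pearson r of each of the 34 genes with the median of the other genes over the 14 arrays (vertical axis) against the range of its log2 level over those arrays (horizontal axis), coloured by role, with a dashed line at 0.8. Genes with a range over 2 log2 all lie above 0.9, and Myom2, Apobec2 and Myl3 combine an r under 0.4 with a range under 0.65.

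Promoters of 2 genes of the common pattern and 2 departing ones are shown because the groups moved differently. RefSeq windows of 250 bases before to 50 after the start, in mouse assembly GRCm38.p6, were matched for 24 of the 34 genes by symbol and numbered 30 of 32851 in all. Each is written 5′ to 3′ on the gene's strand in lower case, and capitals mark the motifs that a search of both strands found. The searched motifs were CANNTG, the E-box bound by myogenic factors, TATAAA, the CArG box of serum response factor, the MEF2 motif, and CATTCC, the M-CAT element, and a MEF2 motif can overlap TATAAA. Ckm lies at chr7:19410844-19411143 on the plus strand, Acta1 at chr8:123894726-123895025 on the minus strand, Tnnc1 at chr14:31208062-31208361 on the plus strand and the window shown for Mb, one of 3, at chr15:77022738-77023037 on the minus strand.
Ckm: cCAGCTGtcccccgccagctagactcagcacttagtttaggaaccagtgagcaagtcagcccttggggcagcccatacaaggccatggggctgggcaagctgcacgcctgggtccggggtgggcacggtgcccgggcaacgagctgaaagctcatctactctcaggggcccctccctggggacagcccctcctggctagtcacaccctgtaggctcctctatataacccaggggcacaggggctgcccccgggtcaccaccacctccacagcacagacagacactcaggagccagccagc
Acta1: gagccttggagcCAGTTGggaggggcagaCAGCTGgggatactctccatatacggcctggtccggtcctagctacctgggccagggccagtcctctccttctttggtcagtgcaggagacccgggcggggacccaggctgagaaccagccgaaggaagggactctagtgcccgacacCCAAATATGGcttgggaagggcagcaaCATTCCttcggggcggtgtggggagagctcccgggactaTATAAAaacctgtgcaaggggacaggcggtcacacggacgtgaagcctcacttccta
Tnnc1: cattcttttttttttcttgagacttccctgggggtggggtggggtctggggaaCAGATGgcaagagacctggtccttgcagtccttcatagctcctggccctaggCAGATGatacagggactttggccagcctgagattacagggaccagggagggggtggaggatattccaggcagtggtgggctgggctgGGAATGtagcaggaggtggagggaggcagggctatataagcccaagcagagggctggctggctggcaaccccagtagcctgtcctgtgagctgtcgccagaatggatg
Mb: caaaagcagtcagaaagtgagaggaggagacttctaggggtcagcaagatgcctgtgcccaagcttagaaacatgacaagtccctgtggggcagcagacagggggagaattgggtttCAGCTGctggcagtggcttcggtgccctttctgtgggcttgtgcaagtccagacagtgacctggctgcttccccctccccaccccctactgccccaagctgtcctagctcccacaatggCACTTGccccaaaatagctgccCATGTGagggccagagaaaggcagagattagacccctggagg

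The Ckm window held 1 E-box, that of Acta1 2 E-boxes, a CArG box, a TATAAA and an M-CAT element, that of Tnnc1 2 E-boxes and an M-CAT element, and that of Mb 3 E-boxes. An E-box was present in 26 of the 30 muscle windows (86.7%), against 72.3% of all windows. A CArG box was present in 5 windows (16.7%), against 1.63%, in Acta1, Ldb3, Myl3 and Myom1. Overlapping windows of Ldb3 were both counted in the 5, and by gene it was 4 of 24. The MEF2 motif was present in 2 windows (6.67%), against 3.19%, TATAAA in 5 (16.7%), against 13.6%, and CATTCC in 8 (26.7%), against 14.7%. E-boxes were found in 13 of 15 common-pattern genes with a window and in 9 of 9 departing ones. A match describes these letters only.

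On each of the 12 treated arrays, 4 of the 34 genes (Mb, Actn2, Mybpc1 and Myl3) exceeded the vehicle pair, as did 2.48% of all probe sets. In the opposite direction, below the vehicle pair on all 12, there were 0 of the 34 genes and 3.76% of all probe sets. Mb stood at 8.90 and 8.66 with E2+acolbifene, 7.23 with E2+fulvestrant, 7.19 with E2+raloxifene, 8.10 with E2+tamoxifen, 8.34 and 8.98 with E2, 7.76 and 8.10 with acolbifene, 8.55 with fulvestrant, 7.59 with raloxifene, 7.95 with tamoxifen and 7.08 and 7.10 with vehicle. Vehicle was the lowest pair, E2+raloxifene and E2+fulvestrant came next, and the second E2 array was the highest. A second probe set of Mb had a range of only 0.31 and an r of -0.24, so the 2 probe sets disagree. Actn2, the alpha-actinin shared by slow and fast fibres and the heart, was at 7.79 and 7.70 with E2+acolbifene, 6.32 with E2+fulvestrant, 6.39 with E2+raloxifene, 6.85 with E2+tamoxifen, 6.64 and 7.03 with E2, 6.38 and 6.25 with acolbifene, 7.28 with fulvestrant, 6.37 with raloxifene, 6.68 with tamoxifen and 6.17 and 5.95 with vehicle. Mybpc1, the slow form of myosin-binding protein C, was at 7.42 and 7.53 with E2+acolbifene, 6.81 with E2+fulvestrant, 6.76 with E2+raloxifene, 7.31 with E2+tamoxifen, 6.87 and 7.54 with E2, 6.95 and 6.79 with acolbifene, 7.75 with fulvestrant, 6.80 with raloxifene, 7.35 with tamoxifen and 6.18 and 6.10 with vehicle. A second probe set of Mybpc1, a dim one, had an r of 0.82 and was above the vehicle pair on 9 of the 12 arrays. Actn2 and Mybpc1 were below the dim level in vehicle, so the size of a fold over vehicle is not exact.

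Tnnc1, the troponin C of slow fibres and heart, was above both vehicle arrays on 11 of 12 arrays, the exception being raloxifene, and it stood at 8.17 and 7.70 with E2+acolbifene, 6.78 with E2+fulvestrant, 6.83 with E2+raloxifene, 7.18 with E2+tamoxifen, 7.23 and 7.99 with E2, 7.11 and 6.99 with acolbifene, 7.52 with fulvestrant, 6.59 with raloxifene, 7.29 with tamoxifen and 6.76 and 6.77 with vehicle. Tnnt1, the slow troponin T, did so on 11 of 12 too, with E2+fulvestrant as the exception, and was at 6.21 and 6.09 with E2+acolbifene, 5.31 with E2+fulvestrant, 5.56 with E2+raloxifene, 5.92 with E2+tamoxifen, 5.75 and 6.22 with E2, 5.53 and 5.47 with acolbifene, 6.29 with fulvestrant, 5.46 with raloxifene, 5.63 with tamoxifen and 5.39 and 5.21 with vehicle. Myl2, the regulatory light chain of slow fibres and heart, was at 7.15 and 7.37 with E2+acolbifene, 5.37 with E2+fulvestrant, 5.55 with E2+raloxifene, 6.02 with E2+tamoxifen, 6.08 and 6.52 with E2, 6.36 and 6.09 with acolbifene, 6.92 with fulvestrant, 5.69 with raloxifene, 6.14 with tamoxifen and 5.54 and 5.77 with vehicle. In all 3 genes E2+acolbifene, the second E2 array and fulvestrant were the high arrays, and Tnnt1 and Myl2 were dim. Tnni1, the slow inhibitory troponin, ranged only from 6.94 in vehicle array 2 to 7.80 with E2+acolbifene.

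Myl3, the essential light chain of slow fibres and heart, was at 7.94 and 7.84 with E2+acolbifene, 7.72 with E2+fulvestrant, 7.81 with E2+raloxifene, 7.87 with E2+tamoxifen, 7.84 and 8.15 with E2, 7.74 and 7.74 with acolbifene, 8.01 with fulvestrant, 7.91 with raloxifene, 8.01 with tamoxifen and 7.65 and 7.51 with vehicle. Its range was 0.65, and its other 2 probe sets had an r of 0.49 and 0.69. Myom2, an M-band protein of fast fibres and heart, was at 7.69 and 7.76 with E2+acolbifene, 7.60 with E2+fulvestrant, 7.52 with E2+raloxifene, 7.74 with E2+tamoxifen, 7.33 and 7.20 with E2, 7.24 and 7.30 with acolbifene, 7.49 with fulvestrant, 7.70 with raloxifene, 7.39 with tamoxifen and 7.37 and 7.38 with vehicle. The second E2 array was the lowest, where most muscle genes were high, yet the 3 dim probe sets of Myom2 had an r of 0.80 to 0.89. Apobec2, a muscle member of the APOBEC deaminase family, ranged over 0.38 at its brightest probe set and over 2.15 at a dim one, where r was 0.79. Cox6a2 ranged from 7.63 with acolbifene to 8.49 with E2+acolbifene. Ldb3 followed the common pattern at its brightest probe set, with an r of 0.94. A second probe set had an r of 0.06, with 7.99 and 8.40 on the E2 arrays against 6.91 and 6.71 in vehicle. The remaining probe set of Ldb3, which was not dim, had an r of 0.23. With the mean over its probe sets the r of Ldb3 was 0.58, the lowest of all the muscle genes in that setting. Its place in the common pattern therefore rests on the choice of probe set. The departure of Myom2, Apobec2 and Cox6a2 rests on the choice of probe set, since their r was 0.94, 0.84 and 0.83 with the mean over probe sets. With the mean over a gene's probe sets 9 genes were under 0.8, of which 7 were among the 11.

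**Figure D4:**
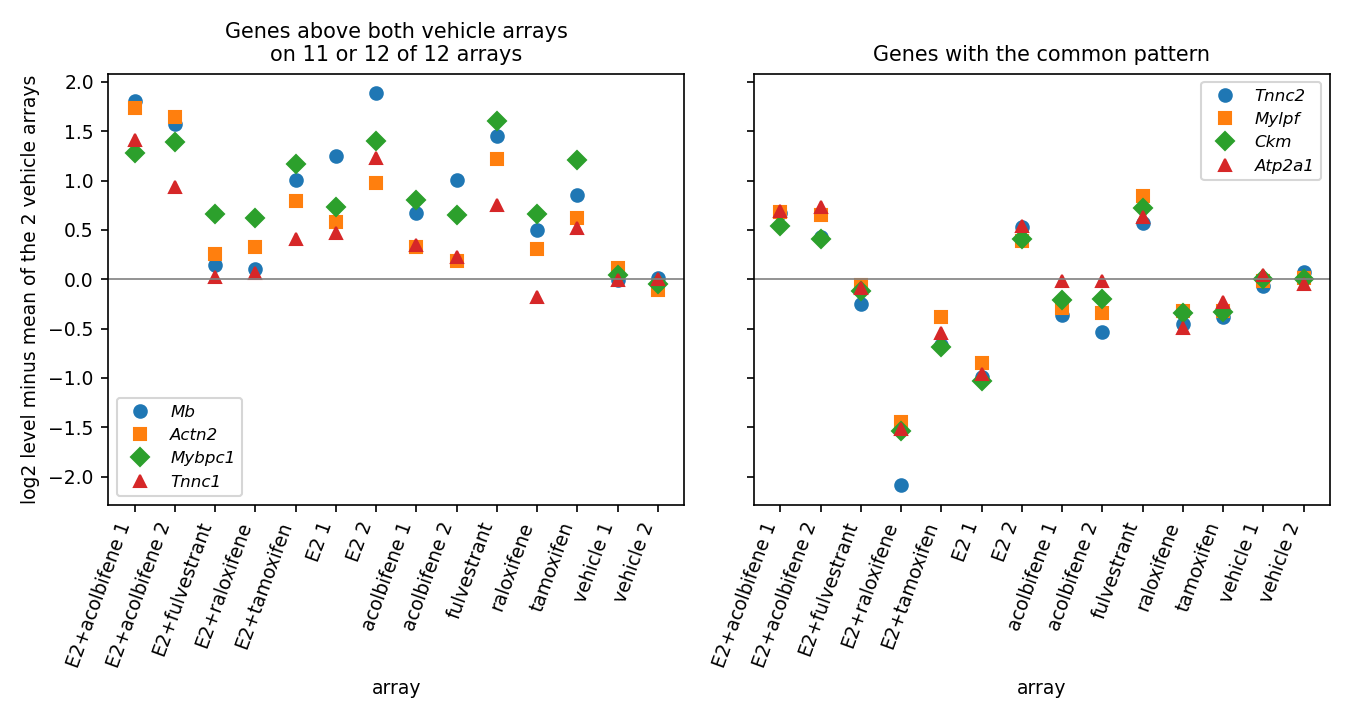
Log2 level minus the mean of the 2 vehicle arrays (vertical axis) on each of the 14 arrays (horizontal axis), for 4 departing genes (left) and 4 genes of the common pattern (right). On E2 array 1 Mb is at 1.25 and Mybpc1 at 0.73, whereas Tnnc2, Mylpf, Ckm and Atp2a1 lie between -0.85 and -1.03.

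E2 alone was compared with vehicle in a limma fit of the 8 arrays of the replicated groups, with p-values adjusted over all 45037 probe sets. At an adjusted p under 0.05, 6 of the 34 muscle genes were higher after E2 and 0 were lower, with 3.74% of all probe sets called, 2.07% higher and 1.67% lower. Levels did not overlap and were higher after E2 for 8 genes, against 22% of all probe sets, and lower for 3, against 30.1%. Mb was 2.97-fold higher (log2 difference 1.57 ± 0.18, SE, 2 arrays each, limma adjusted p = 0.000844) and Mybpc1 2.09-fold (1.06 ± 0.17, adjusted p = 0.00662). Actn2 was higher by 0.78 ± 0.13 (adjusted p = 0.00869), Tnnt1 by 0.68 ± 0.14 (adjusted p = 0.0214), Myl2 by 0.65 ± 0.15 (adjusted p = 0.039) and Tnnc1 by 0.85 ± 0.21 (adjusted p = 0.0471). All 6 are among the departing genes, which were picked on arrays that include these, so that overlap is no separate result. Of the 6, 3 are slow fibre genes and 0 fast ones, a difference that was not tested. The fast genes differed more within the E2 pair (median -1.24 log2, against -0.43 for the slow genes), which widens their intervals in this fit. No slow fibre gene was called without vehicle array 1, without vehicle array 2 or without E2 array 2. Averaging over a gene's probe sets gave a difference of 0.75 for Mb (limma adjusted p = 0.00674) and 0.63 for Mybpc1 (adjusted p = 0.03). The median difference of the 34 genes was -0.04, against -0.02 over all probe sets.

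Common-pattern genes were not called, with wide intervals. Tnnc2 differed by -0.23 (95% interval -0.97 to 0.51, adjusted p = 0.753), Mylpf by -0.23 (-0.83 to 0.37, adjusted p = 0.682) and Atp2a1 by -0.21 (-0.92 to 0.50, adjusted p = 0.767). With E2 array 2 as the only E2 array, 14 genes were higher and 0 lower, among them Ttn (1.32), Neb (1.28) and Tcap (1.01), with 0.822% of all probe sets higher and 0.242% lower. With E2 array 1 as the only one, Mb and Mybpc1 were higher and 12 genes were lower, 7 of them fast, among them Mybpc2 (-1.31), Pygm (-1.07) and Ckm (-1.03), with 0.886% of all probe sets higher and 1.2% lower. Acta1 was called in both, in opposite directions, so only Mb and Mybpc1 were called alike with each array. The count was 3 without vehicle array 1 (Actn2, Mb and Mybpc1) and 2 without vehicle array 2 (Mb and Mybpc1), with 0.955% and 1.58% of all probe sets called. For the Actb control, a sign of RNA quality, the 3' probe set exceeded the 5' one by an amount that was 0.41 and 0.43 log2 on the E2 arrays, against 0.28 and 0.24 on the vehicle arrays, and the part of RNA quality in these differences was not tested.

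**Figure D5:**
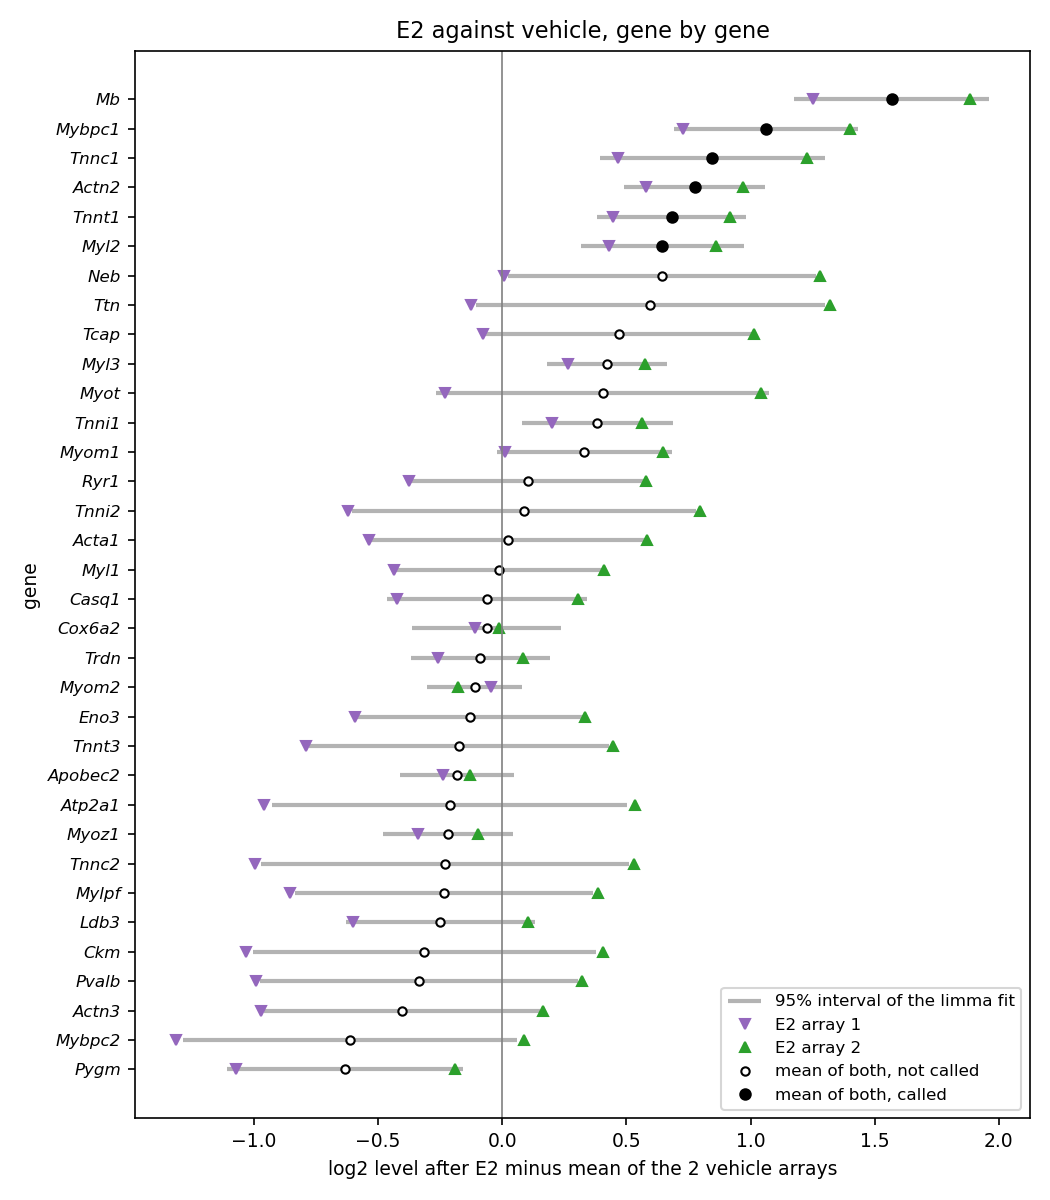
Log2 level after E2 minus the vehicle mean (horizontal axis) for each of the 34 genes (vertical axis), with purple and green triangles for E2 arrays 1 and 2, circles for their mean (filled where called by limma) and grey bars for the 95% interval. Triangles fall on opposite sides of 0 for 19 genes, and both lie to the right for 10.

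Acolbifene alone differed from vehicle in 0 of the 34 genes by limma at an adjusted p under 0.05, with 0.597% of all probe sets called, 0.406% higher and 0.191% lower, and in 3 at an unadjusted p under 0.05, as in 16% of all probe sets. The largest differences were those of Mb (0.84, 95% interval 0.44 to 1.23, adjusted p = 0.0657), Mybpc1 (0.73, 0.36 to 1.10, adjusted p = 0.0809) and Myl2 (0.57, 0.24 to 0.90, adjusted p = 0.113). These genes were above vehicle on both acolbifene arrays, while Tnnc2 (-0.45), Mylpf (-0.32) and Ckm (-0.20) were below. Levels did not overlap and were higher after acolbifene for 12 genes, against 26.8% of all probe sets, and lower for 11, against 20%. The median difference was -0.01, against 0.01 over all probe sets.

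E2+acolbifene was set against vehicle as well. Here 8 of the 34 genes were higher and 0 lower, with 0.837% of all probe sets called, 0.453% higher and 0.384% lower. Actn2 was 3.22-fold higher (log2 difference 1.69 ± 0.13, limma adjusted p = 0.000336), Mb 3.23-fold (1.69 ± 0.18, adjusted p = 0.00205) and Myl2 3.04-fold (1.60 ± 0.15, adjusted p = 0.000869). Mybpc1 (1.33), Tnnc1 (1.17), Myom1 (0.98), Tnnt1 (0.85) and Trdn (0.84) were also higher, with adjusted p from 0.00584 to 0.0305. The levels of 33 of the 34 genes did not overlap and were higher with E2+acolbifene, against 24.8% of all probe sets, the exception being Apobec2, and 0 were lower without overlap, against 27.8%. The median difference was 0.69, against -0.003 over all probe sets. Leaving out any 1 of the 4 arrays left 3 or 4 genes called, in each case with Actn2, Mb and Myl2 among them, and 0.0755% to 0.144% of all probe sets. Averaged over probe sets, the difference was 0.80 for Mb (limma adjusted p = 0.0142), and Trdn was not called (0.31, adjusted p = 0.128). The fit takes its variance from all 4 replicated groups, so the count of 8 carries the spread of the E2 pair. A term for the raw-file code takes up the difference within that pair. Under that term 23 genes were higher, 6 of them fast, and 0 lower, among 0.908% of all probe sets called. The median difference stayed at 0.69. The 3' excess of Actb was 0.30 and 0.31 log2 on the E2+acolbifene arrays, against 0.28 and 0.24 in vehicle, and its part was not tested.

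Given with E2, acolbifene was then compared with E2 alone, which asks what the blocker changed in the presence of estradiol. By limma 7 of the 34 genes were higher and 0 lower, with 3.66% of all probe sets called, 1.63% higher and 2.03% lower. Trdn (0.93 ± 0.13, adjusted p = 0.00722), Actn2 (0.91 ± 0.13, adjusted p = 0.00853) and Myl2 (0.96 ± 0.15, adjusted p = 0.013) had the smallest adjusted p. With the mean over probe sets Trdn was not called (0.28, limma adjusted p = 0.114), nor was Myom2 (0.46, adjusted p = 0.0829). Myoz1 (0.63), Myom2 (0.46), Pygm (1.06) and Casq1 (0.88) followed at adjusted p of 0.0244 to 0.0322. The levels of 22 genes did not overlap and were higher with the combination, against 31.9% of all probe sets, and 0 did so in the other direction, against 26.3%. The median difference of 0.66 rested on the choice of E2 array: it was 0.19 without E2 array 1, with Actn2 and Trdn called among 0.631% of all probe sets, and 1.17 without E2 array 2, with 24 genes called among 0.533%. Without E2+acolbifene array 1 only Myl2 was called, among 0.495% of all probe sets, and without array 2 only Trdn, among 0.258%. The 3' excess of Actb was 0.30 and 0.31 log2 on the E2+acolbifene arrays, against 0.41 and 0.43 on the E2 arrays, and its part was not tested.

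The effect of acolbifene differed with and without E2 in 4 of the 34 genes, all larger with E2, where 4.47% of all probe sets differed, 1.55% with a higher and 2.92% with a lower value with E2. Pygm was at 9.59 and 9.36 with E2+acolbifene, 8.84 with E2+fulvestrant, 7.95 with E2+raloxifene, 8.51 with E2+tamoxifen, 7.98 and 8.86 with E2, 8.95 and 8.78 with acolbifene, 9.43 with fulvestrant, 8.50 with raloxifene, 8.63 with tamoxifen and 9.16 and 8.94 with vehicle. Its difference of effects was 1.24 ± 0.31 log2 (limma adjusted p = 0.0461). Myoz1 was at 9.64 and 9.45 with E2+acolbifene, 9.26 with E2+fulvestrant, 8.64 with E2+raloxifene, 9.17 with E2+tamoxifen, 8.79 and 9.03 with E2, 8.76 and 9.02 with acolbifene, 9.64 with fulvestrant, 9.22 with raloxifene, 9.10 with tamoxifen and 9.19 and 9.07 with vehicle, with a difference of effects of 0.87 ± 0.17 (adjusted p = 0.0226). Trdn was at 7.12 and 6.89 with E2+acolbifene, 6.39 with E2+fulvestrant, 5.84 with E2+raloxifene, 6.22 with E2+tamoxifen, 5.90 and 6.25 with E2, 6.21 and 6.34 with acolbifene, 6.70 with fulvestrant, 6.23 with raloxifene, 6.32 with tamoxifen and 6.08 and 6.25 with vehicle, with 0.82 ± 0.18 (adjusted p = 0.0349), and Myom2 had 0.56 ± 0.12 (adjusted p = 0.0349). When averaged over probe sets, 3 of the 4 were not called: Myoz1 (0.44, limma adjusted p = 0.0836), Trdn (0.26, adjusted p = 0.245) and Myom2 (0.32, adjusted p = 0.34). Pygm has only 1 probe set, so averaging could not change its values. In all 4 genes both E2+acolbifene arrays lay above both E2 arrays. Leaving out 1 array changed the count to between 0 and 23. It was 23 without E2 array 2, with 0.859% of all probe sets called, and without E2 array 1 it was 3, with 2.47% called, with Myom2 higher and Mb and Mybpc1 lower. Without any 1 of the E2+acolbifene, acolbifene or vehicle arrays, the 4 calls did not all persist. The median difference of effects over the 34 genes was then between 0.58 and 0.71, against 0.68 with all 8 arrays.

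The remaining comparisons rest on 1 array of each blocker or combination, taken in a limma fit of all 14 arrays to vary like the replicated groups. That variation includes the spread of the E2 pair. Fulvestrant alone gave 5 genes higher than vehicle and 0 lower, with 0.34% of all probe sets called, 0.167% higher and 0.173% lower. They were Mybpc1 (3.05-fold, log2 difference 1.61 ± 0.21, limma adjusted p = 0.0132), Actn2 (1.22 ± 0.16, adjusted p = 0.0137), Myl2 (1.26 ± 0.18, adjusted p = 0.0225), Mb (1.45 ± 0.22, adjusted p = 0.0268) and Tnnt1 (0.98 ± 0.17, adjusted p = 0.0362). Set beside the E2+acolbifene comparison, which uses the same vehicle arrays, the differences were 1.61 and 1.33 for Mybpc1 and 1.22 and 1.69 for Actn2. The median difference was 0.73, against -0.01 over all probe sets. Without vehicle array 1 only Actn2 was called, among 0.0622% of all probe sets, and without vehicle array 2 none was, with 0.0488% of all probe sets called. In that last fit 15 genes had an unadjusted p under 0.05, as did 10.8% of all probe sets. Mb was not called with the mean over its probe sets (0.66, limma adjusted p = 0.0926), and the difference of Mybpc1 was 0.98 (adjusted p = 0.0359).

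Raloxifene and tamoxifen alone called 0 muscle genes each by limma. At an unadjusted p under 0.05 there were 4 with raloxifene, against 14.6% of all probe sets, and 5 with tamoxifen, against 13%. With raloxifene 0.2% of all probe sets were called, 0.107% higher and 0.0933% lower, and with tamoxifen 0.164%, 0.0866% higher and 0.0777% lower. The median differences were -0.17 and -0.05. Mybpc1 was again the member farthest above vehicle, by 0.66 with raloxifene (adjusted p = 0.19) and by 1.21 with tamoxifen (adjusted p = 0.0553). Tamoxifen also had Mb at 0.86 (adjusted p = 0.157), Actn2 at 0.62 (adjusted p = 0.158) and Myl3 at 0.43 (adjusted p = 0.217).

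Set against E2 alone, E2+fulvestrant called 0 muscle genes by limma, with 0.0266% of all probe sets called, 0.0222% higher and 0.00444% lower, and 7 muscle genes at an unadjusted p under 0.05, as 7.41% of all probe sets. Mb differed by -1.43 (adjusted p = 0.0889) and Myl2 by -0.93 (adjusted p = 0.308). E2+raloxifene had 1 gene lower and 0 higher, Mb (-1.47 ± 0.22, adjusted p = 0.0279), with 0.189% of all probe sets called, 0.0666% higher and 0.122% lower. Mb was not called when its probe sets were averaged (-0.72, adjusted p = 0.0942). The differences of Tnnc2 (-1.85, adjusted p = 0.124), Ckm (-1.22, adjusted p = 0.25) and Mylpf (-1.21, adjusted p = 0.2) were not called, in a fit that carries the spread of the E2 pair. The 3' excess of Actb was 0.41 log2 on the E2+raloxifene array, and its part was not tested. E2+tamoxifen had 1 gene higher and 0 lower, Myom2 (0.48 ± 0.11, adjusted p = 0.0418), with 3.23% of all probe sets called, 1.94% higher and 1.29% lower. Averaging the probe sets of Myom2 gave a difference of 0.02 (adjusted p = 0.948).

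These counts turned on the E2 array used. Without E2 array 1, 4 genes (Mb, Neb, Tcap and Ttn) were lower with E2+fulvestrant, against 0.0755% of all probe sets, 21 with E2+raloxifene, against 0.391%, and 17 with E2+tamoxifen, against 2.16%, where Myom2 was also higher. Without E2 array 2, 0 genes were called with E2+fulvestrant or E2+tamoxifen, and 2 (Acta1 and Neb) were lower with E2+raloxifene, against 0.0622% of all probe sets. The median differences ran from -0.54 to 0.31, from -1.14 to -0.40 and from -0.70 to 0.20 for E2+fulvestrant, E2+raloxifene and E2+tamoxifen over these 2 choices, around -0.01, -0.76 and -0.21 with both E2 arrays.

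Other lists of genes gave the setting. Of 45 other muscle genes measured, 5 were higher and 0 lower after E2 than in vehicle, where 2.07% of all probe sets were higher. With E2 array 2 alone 7 were higher and 0 lower, and with E2 array 1 alone 1 was higher and 2 were lower. With E2+acolbifene 9 were higher than in vehicle, against 0.453% of all probe sets, and 0 lower, but leaving out 1 array left 0 or 1. With fulvestrant 2 were higher, against 0.167%, and 0 without either vehicle array. Their array medians ran from -0.02 to 0.37 log2 relative to vehicle. Cardiac markers had medians of -0.24 to 0.22 relative to vehicle. Of these 10, Myh6, Tnni3, Tnnt2, Myl7, Nppa and Gata4 were dim. The other 4 were above the dim level, with mean levels of 7.98 for Myl4, 7.34 for Nppb, 7.27 for Nkx2-5 and 7.26 for Mybpc3. Smooth muscle markers had medians of -0.03 to 0.20, and 5 of 8 myogenic regulators and satellite cell genes were dim. Brown adipocyte markers ran from -0.34 to 0.29. The part of these cell types in the muscle gene levels was not tested. Of the myosin heavy chains, Myh4 followed the common pattern, with 8.37 and 9.89 after E2 against 9.37 and 9.46 in vehicle. Myh1 was at 7.81 and 9.40 after E2 and at 4.84 and 4.95 in vehicle, below the dim level, with an r of 0.58. Myh2, a dim one, was at 6.48 and 7.88 after E2 and at 5.15 and 5.35 in vehicle, with an r of 0.75. Unlike Myh4, both were above the vehicle pair on every other array.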

How the data were processed

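Expression was measured on 14 Affymetrix arrays of pooled mammary glands. The deposited values are log2 levels made by the authors with RMA, per the submitters' processing notes. RMA normalizes quantiles between arrays, so overall shifts are removed and weak signals are compressed. The design text names U74Av2 arrays, whereas the 45101 probe sets are those of the Mouse Genome 430 2.0 array. Control probe sets (64) were left out and 45037 were tested. Names came from the platform annotation: 34945 probe sets had 1 symbol, 932 several and 9160 none here. The members and gene lists were chosen with earlier results of these data known. Every member could be named; other named genes are the 10 with the highest r with the member median and genes of the comparison lists. Members with r under 0.8 or a wide or narrow range are given in most detail.

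Tests used limma, version 3.58.1, under R 4.3.3 (Benjamini-Hochberg over 45037 probe sets, adjusted p under 0.05, 4 residual degrees of freedom) and the fit was tested on simulated data. The replicated groups (E2+acolbifene, E2, acolbifene, vehicle) were fitted on their 8 arrays and the other comparisons on all 14. Alternatives were a filter on dim probe sets, another quantile normalization, an intensity trend, the raw-file code, the replicate number as a block, all 14 arrays, the mean over a gene's probe sets, and leaving out each array. The number of arrays limits the precision. Doses are left out, since the labels give none for the blockers and the unit of the E2 dose is in doubt.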

Additional observations from a re-analysis of the deposited data

Results flagged for a closer look

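The acolbifene effect differed with and without E2 in 4 muscle genes, by limma's test of that difference. It was larger with E2 by 0.56 log2 for Myom2, an M-band protein, by 0.87 for Myoz1 of the Z-disc, by 1.24 for Pygm, the glycogen phosphorylase of muscle, and by 0.82 for Trdn, which anchors calsequestrin. With the mean over all probe sets of a gene the adjusted p was 0.34 for Myom2, 0.0836 for Myoz1 and 0.245 for Trdn. Pygm has only 1 probe set, so that check could not change its values. Over all alternative settings the call was kept in 6 of 15 for Pygm, 8 of 15 for Myoz1, 5 of 15 for Myom2 and 5 of 14 for Trdn.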

How the results depend on the processing

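Of 330 alternative values for single called genes, the call was kept by 173 under other settings and 45 with an array left out, was lost by 27 and 85, and 0 changed direction. The 56 alternative array levels moved by less than the spread between the 2 arrays of a pair (SD 0.31 log2). That spread came mostly from the E2 pair, with a level difference of -0.89, against 0.03 for E2+acolbifene, 0.02 for acolbifene and 0.01 for vehicle. It is therefore a wide limit: the E2+raloxifene level moved from -0.84 to -0.56 with the mean over probe sets. Leaving out 1 array gave 2 to 14 called genes for E2 against vehicle (median -0.30 to 0.53), 1 to 24 for E2+acolbifene against E2 (0.19 to 1.17), 3 to 4 for E2+acolbifene against vehicle (0.67 to 0.72), 0 to 23 for the E2 dependence of the acolbifene effect (0.27 to 0.99) and 0 to 1 for fulvestrant against vehicle. It gave 0 to 4 for E2+fulvestrant against E2 (median -0.54 to 0.31), 2 to 21 for E2+raloxifene (-1.14 to -0.40) and 0 to 18 for E2+tamoxifen (-0.70 to 0.20). Adding the raw-file code to the model, which in the 8-array fits equals leaving out E2 array 1 and otherwise rests on the E2 pair alone, called 14 genes for E2 (median 0.53) and 2 for acolbifene; for E2+acolbifene it called 2 against E2 (median 0.19) and 23 against vehicle. It called 24 for fulvestrant (median 1.66), 1 for tamoxifen (median 0.87), 2 for E2+raloxifene (median -0.40) and 0 for E2+tamoxifen (median 0.20). The median was then 0.27 for the E2 dependence of the acolbifene effect, 0.75 for raloxifene and 0.31 for E2+fulvestrant. An intensity trend called more probe sets of every kind. It gave 2 genes for acolbifene, among 3.19% of all probe sets, and 14 for E2+acolbifene against E2, among 6.73%. Against vehicle it gave 16, among 3.85%, and for the difference of effects 11, among 9.27%. It also raised the counts for tamoxifen, E2+fulvestrant and E2+raloxifene, which rest on 1 array each. The median for E2+raloxifene stayed at -0.76. Without dim probe sets acolbifene called 1 of 30 genes, with 2.61% of the probe sets kept called. Tamoxifen and E2+raloxifene, with 1 array each, also gained a called gene. The mean over probe sets left 0 for E2+raloxifene and for E2+tamoxifen, and another quantile normalization 0 for E2+tamoxifen. Rank correlation put 17 genes under 0.8. The cause of these changes was not tested beyond the arrays left out.

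Replicate numbers were shared by the groups, and the labels do not say what the number means. Over all probe sets, same-numbered arrays did not deviate together (correlations -0.12 to 0.12). A part shared in some genes only was not tested. With the replicate number as a block, E2 called 5 genes, among 3.01% of all probe sets, and acolbifene 0, among 0.417%. E2+acolbifene called 8 against E2, among 2.22%, and 8 against vehicle, among 0.617%. For the E2 dependence of the acolbifene effect 2 were called, among 2.65%.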
